A study of Homo sapiens with 12 samples.

Results

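The CC chemokine genes of 2 head and neck squamous cell carcinoma lines were examined as 6 genes: CCL2, CCL5, CCL20, CCL26, CCL28 and CCRL2. They were taken by their symbols from count tables that list 39368 gene symbols for each line, and all 6 were present in both tables. RNA-seq had been performed on CAL27 and HSC3 cells, both HPV-negative and both carrying the tet-inducible MUC1shRNA#1 in the pLKO-tet-puro vector. Vehicle cultures received 0.1% DMSO and the others 500 ng/ml doxycycline (DOX), which switches on the hairpin, for 7 days. Each of the 4 groups (CAL27 vehicle, CAL27 DOX, HSC3 vehicle, HSC3 DOX) had 3 libraries, made from triplicate cultures, for 12 in all. The cells had been transduced and selected with puromycin, and the labels give no cloning step. DOX-treated cells with the scrambled hairpin (tet-CshRNA) were not analysed here, so an effect of DOX itself cannot be told apart from the loss of MUC1.

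CC chemokines are small secreted proteins with 2 adjacent cysteines that attract leukocytes through G protein-coupled receptors. Ligands of this family divide by the cells they call in: CCL2 draws monocytes through CCR2, CCL5 draws T cells and monocytes through several receptors, CCL20 draws CCR6-bearing dendritic cells and Th17 cells, CCL26 (eotaxin-3) draws eosinophils through CCR3, and CCL28 is a mucosal chemokine of epithelia that acts through CCR10 and CCR3. CCRL2 is not a ligand but a receptor-like protein that binds the chemoattractant chemerin without classical signalling and presents it to neighbouring cells. In carcinomas, tumor cells themselves can be a source of these ligands, and many of the genes respond to NF-kB, interferon or STAT signalling.

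The 6 genes lie at 6 separate places in GRCh38, as GENCODE v44 annotates them. CCL2 (chr17:34255274-34257208, plus strand) and CCL5 (chr17:35871491-35880793, minus strand) are on chromosome 17. CCL20 is at chr2:227805739-227817564 on the plus strand, CCL26 at chr7:75769533-75789896 on the minus strand and CCL28 at chr5:43376645-43412391 on the minus strand. CCRL2 is at chr3:46407166-46412997 on the plus strand. None of the 6 shared exon bases with another annotated gene on either strand.

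Upstream sequences are shown for CCL20 and CCRL2, the members whose response to DOX differed between the lines with at least 87 counts in every library. The RefSeq promoter table on GRCh38.p14 held windows for 4 of the 6 members, and none was used for CCL2 and CCL5. The CCL20 stretch (chr2:227813592-227813821, plus strand) lies inside the GENCODE gene model, upstream of the RefSeq start and outside any annotated exon. The CCRL2 stretch (chr3:46407118-46407165, plus strand) is the 48 bases directly before the GENCODE start of CCRL2, and holds no annotated exon.
CCL20: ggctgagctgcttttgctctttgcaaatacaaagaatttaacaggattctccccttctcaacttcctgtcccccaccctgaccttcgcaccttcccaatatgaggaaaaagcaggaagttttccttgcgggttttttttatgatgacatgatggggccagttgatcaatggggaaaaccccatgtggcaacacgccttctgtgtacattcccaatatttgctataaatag
CCRL2: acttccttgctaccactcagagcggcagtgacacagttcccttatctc
They show the bases before 1 annotated start of each gene, a RefSeq start for CCL20 and the GENCODE start for CCRL2, and no binding element is marked in them.

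Library depth was high, with 89730914 to 169065103 counts over all genes, but the estimated number of distinct molecules behind the counts differed between the lines. Judged by the share of genes expected at 8 to 16 counts that were missing from a library, each molecule gave an estimated 2.45 to 3.33 counts in the CAL27 libraries, 4.18 to 7.43 in HSC3 vehicle and 8.93 to 17.2 in HSC3 DOX. By this estimate a count of 10 in HSC3 can stand for 1 or 2 molecules. The estimate takes every missing gene as random sampling of molecules, so other variation between replicates would raise it. Of counts from 1 to 19, 22.1% to 25.7% were odd in the HSC3 libraries and 32.2% to 35.7% in CAL27. MUC1, the target of the hairpin, fell in CAL27 from 55.3 ± 2.79 to 2.98 ± 0.249 CPM (counts scaled to library size; SD, n = 3) and in HSC3 from 1.76 ± 0.186 to 0.237 ± 0.0928 CPM (log2 changes −4.21 and −2.88, both called). They were normalized by the trimmed mean of M values (TMM) over all 12 libraries, so that 1 gene can be compared between groups. The squamous markers KRT5, KRT14, KRT17, KRT6A, TP63, CDH1, EPCAM and DSG3 were all counted in every group. Their summed level went from 6302–6575 to 2970–3183 CPM in CAL27 and from 5885–6593 to 2688–3124 CPM in HSC3 with DOX. Of the 8, 5 in CAL27 and 4 in HSC3 were called lower, beside 5.11% and 4.4% of all genes tested. By the adjusted p alone 6 were lower and 1 higher in each line. Of all genes tested, 21.8% were lower and 22.6% higher in CAL27, and 15.4% and 13% in HSC3. In HSC3, EPCAM had 4363 to 7029 counts with vehicle and 11284 to 17094 with DOX. The summed level of 12 leukocyte markers was 7.50–8.32 CPM with vehicle and 6.36–8.38 CPM with DOX in CAL27, and 3.83–4.02 and 0.661–2.83 CPM in HSC3. In CAL27, CD14 (405 to 670 counts) and CSF1R (184 to 341 counts) gave most of it, ITGAX was called lower with DOX, and CD3D and MS4A1 were at 0. In HSC3, 5 of the 12 were at 0 with vehicle and 6 with DOX. The summed level of 9 fibroblast and endothelial markers was 26.5–26.6 CPM with vehicle and 17.6–20.8 CPM with DOX in CAL27, and 4.59–5.36 and 6.11–9.59 CPM in HSC3. In CAL27, CDH5 (880 to 2048 counts), COL1A1 (807 to 1089) and LUM (56 to 320) were counted, PDGFRB and LUM were called lower with DOX, and COL3A1 was at 0, as it was in HSC3. The part of these shifts in the results below was not tested.

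In the vehicle cultures, the lines differed most in CCL2 among the 6 members. Vehicle-treated CAL27 cells had 32218, 23281 and 29216 counts of CCL2, which is 229.8 ± 13.4 CPM (SD, n = 3), and vehicle-treated HSC3 cells had 10, 6 and 12 counts, which is 0.0867 ± 0.0138 CPM. The HSC3 values correspond to an estimated 1.4 to 1.6 molecules in each library, so CCL2 was close to the limit of detection in that line. The difference of HSC3 minus CAL27 was −11.33 ± 0.29 on the log2 scale (SE; adjusted p = 3.3e-14, edgeR's quasi-likelihood test with Benjamini-Hochberg adjustment). This is a bulk measurement, in which fewer expressing cells and less RNA per cell cannot be told apart. A gene was called where the adjusted p was under 0.05 and the log2 change beyond 1. The groups of CCL2 did not overlap, which held for 40.1% of all genes in that direction. By the rule for calls 18.7% of all 20694 genes tested were lower in HSC3 and 13.2% higher (32.3% and 30.6% by the adjusted p alone), and of the 6 members CCL2 was called lower and CCRL2 higher.

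CCRL2 was the member called higher in HSC3, at 3.76 ± 0.679 CPM against 1.81 ± 0.0950 CPM in CAL27 with vehicle (SD, n = 3). Its counts were 524, 272 and 410 in HSC3 and 234, 200 and 227 in CAL27, and on the CPM scale the groups did not overlap, as for 34.2% of all genes in that direction. The difference was 1.06 ± 0.14 on the log2 scale (SE, adjusted p = 7.5e-06 in edgeR's test). With library totals in place of TMM it was 0.79 and no longer beyond the fold limit, and without the first HSC3 vehicle library it was 0.89.

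The other 4 members were not called between the vehicle groups. CCL20 was lower in HSC3, at 2.01 ± 0.617 against 3.31 ± 0.254 CPM (difference −0.72 ± 0.24, adjusted p = 0.015 in edgeR's test), short of the fold limit, and without the first HSC3 vehicle library the difference was −1.01 and called. CCL5 stood at 0.311 ± 0.161 CPM in HSC3 and 0.965 ± 0.157 CPM in CAL27, a difference of −1.62 ± 0.69 with an adjusted p of 0.054 by edgeR that fell under 0.05 with each of 5 other choices of scaling, filter or tool. CCL28 was 17.1 ± 1.55 CPM in HSC3 and 14.4 ± 0.24 CPM in CAL27 (difference 0.25 ± 0.10, adjusted p = 0.046 in edgeR's test), which turned to −0.02 with library totals. CCL26 was at 0.132 ± 0.0542 CPM in HSC3 and 0.0750 ± 0.0666 CPM in CAL27, and the groups overlapped. In all comparisons of the vehicle groups, line and any batch of its libraries cannot be told apart.

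**Figure D1:**
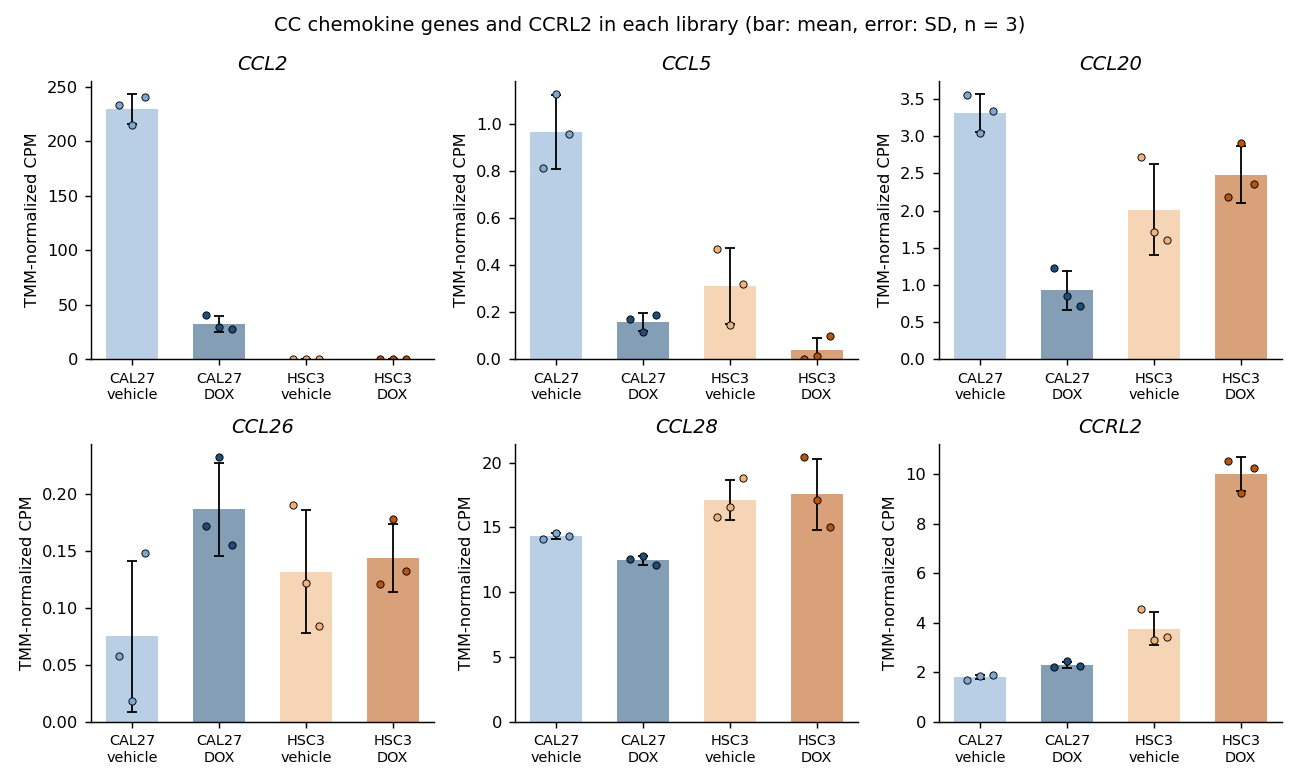
TMM-normalized CPM of each member in each library, on a linear axis from 0 that differs between panels. Bars are means of 3 libraries, error bars are SD and points are libraries, and CCL2 in CAL27 vehicle (229.8 CPM) dwarfs its level in HSC3 (0.0867 CPM), where its points lie on the axis.

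Which ligand dominated also differed between the lines. Genes were ranked per kilobase of exon, with the exons of all annotated transcripts of a gene merged. Such a length can exceed that of the transcript expressed, and for CCL2 its 1935 bases span the whole gene. The ranks and shares therefore depend on the annotation. CCL2 led in CAL27 vehicle at 118.8 ± 6.94 CPM per kb, followed by CCL28 at 3.17 ± 0.0525 and CCL20 at 2.08 ± 0.159. Next came CCL5 at 0.707 ± 0.115, CCRL2 at 0.603 ± 0.0318 and CCL26 at 0.107 ± 0.0948. CCL5 and CCRL2 overlapped in that order and the other neighbours did not. In HSC3 vehicle CCL28 led at 3.77 ± 0.342 CPM per kb, ahead of CCL20 at 1.26 ± 0.387 and CCRL2 at 1.26 ± 0.227, which overlapped. CCL5 (0.228 ± 0.118) and CCL26 (0.188 ± 0.0771) overlapped below them, and CCL2 came last at 0.0448 ± 0.00712.

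The order within each line was not the same with DOX. In CAL27 DOX the order was CCL2 (16.7 ± 3.84 CPM per kb), CCL28 (2.75 ± 0.0789), CCRL2 (0.771 ± 0.0411) overlapping CCL20 (0.582 ± 0.166), CCL26 (0.266 ± 0.0580) and CCL5 (0.116 ± 0.0271), so CCL5 moved from the fourth place to the last. In HSC3 DOX, CCL28 (3.88 ± 0.601) overlapped CCRL2 (3.35 ± 0.231), and CCL20 (1.56 ± 0.241) no longer overlapped CCRL2. CCL26 followed at 0.205 ± 0.0428, with CCL2 (0.0386 ± 0.0354) and CCL5 (0.0279 ± 0.0392) overlapping at the bottom.

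Shares were taken over 25 CC ligand genes with an annotated exon length, by the same merged lengths. CCL2 made up 93.8% to 94.3% of the CC ligand RNA per base in CAL27 vehicle and 75.4% to 80.4% in CAL27 DOX. CCL28 went as a share from 2.40–2.73% to 10.6–14.3% while its own level, given below, went down slightly. In HSC3, CCL28 made up 56.6% to 71.7% with vehicle and 60.8% to 67.8% with DOX, and CCL20 17.3% to 27.6% and 20.5% to 30.1%. CCL2 was at most 1.05% in any HSC3 library. The vehicle and DOX ranges overlapped in HSC3 for CCL28 and CCL20 and did not in CAL27 for CCL2 and CCL28.

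**Figure D2:**
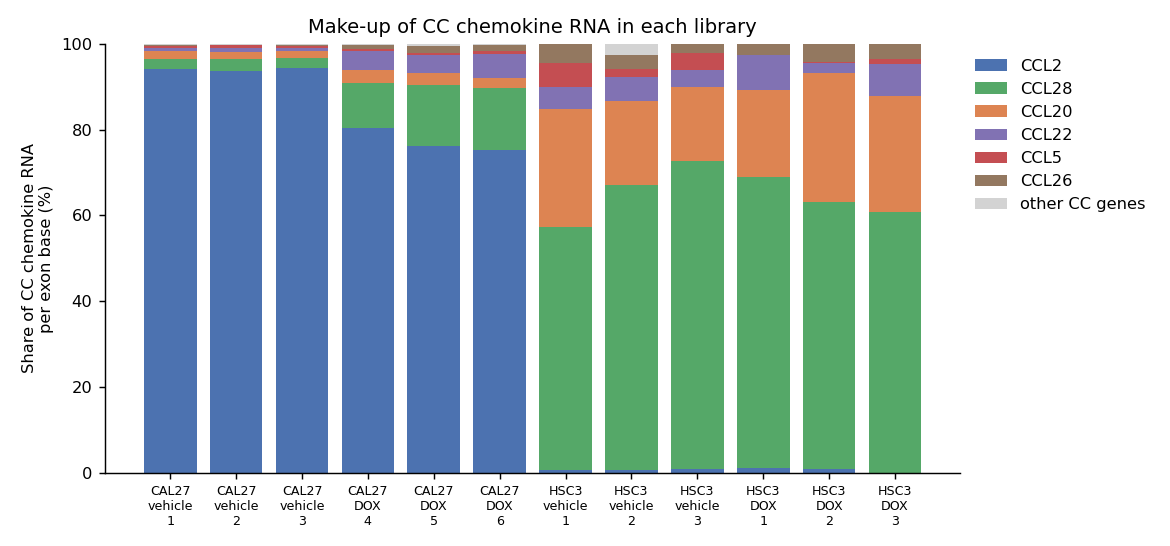
Share of the RNA of 25 CC chemokine genes, counted per exon base, in each of the 12 libraries (y axis in percent, 1 stacked bar per library). CCL2 fills at least 75.4% of every CAL27 bar, and CCL28 at least 56.6% of every HSC3 bar.

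In CAL27 cells, 3 of the 6 members fell with DOX: CCL2, CCL5 and CCL20. All 6 passed the filter on low counts, and over all 19239 genes tested 5.11% were called lower and 1.31% higher. The median log2 change of the 6 members was −1.03, beside −0.00522 for all genes tested, though CCL26 and CCRL2 went up. This and the later medians only describe genes that were chosen with earlier results of these data known. CCL28 and CCRL2 passed the adjusted p and not the fold limit, and CCL26 did not pass.

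CCL2, the monocyte attractant, went from 233.5, 214.9 and 241.0 CPM in the 3 vehicle libraries to 40.9, 29.0 and 27.2 CPM in the 3 DOX libraries. Every DOX library was far below every vehicle library, and 26.3% of all genes tested in CAL27 had no overlap in that direction. The log2 change was −2.83 ± 0.18 (SE, adjusted p = 2.7e-04 in edgeR's test, n = 3 per group). CCL7, the neighbour that starts 13013 bases beyond the end of CCL2 and encodes another monocyte attractant, had 10, 15 and 4 counts in the vehicle libraries and 1, 1 and 2 after DOX, too few to be tested.

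CCL5, an attractant of T cells, had 112, 122 and 116 counts without DOX and 18, 12 and 24 under DOX in CAL27. That is 0.812, 1.13 and 0.957 CPM against 0.172, 0.116 and 0.186 CPM, with no overlap (26.3% of all genes in that direction). The log2 change was −2.59 ± 0.28 (SE, adjusted p = 2.6e-07 in edgeR's test).

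CCL20, the ligand of CCR6, had 490, 330 and 405 counts in the vehicle libraries and 128, 87 and 92 in the DOX libraries. On the CPM scale these were 3.55, 3.05 and 3.34 against 1.22, 0.844 and 0.714, again with no overlap (26.3% of all genes in that direction). The log2 change was −1.85 ± 0.17 (SE, adjusted p = 2.1e-08 in edgeR's test). CCL2, CCL5 and CCL20 stayed called in all 14 other ways of processing, left-out libraries included. Among these, a fold limit of 1.5 and the adjusted p alone are looser cuts of the same fit, which cannot lose a call.

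The remaining 3 members moved less in CAL27. CCL28 went from 14.1, 14.6 and 14.3 CPM to 12.6, 12.8 and 12.1 CPM, all lower, with a log2 change of −0.21 ± 0.063 (adjusted p = 0.010 in edgeR's test). CCRL2 went from 1.70, 1.85 and 1.87 CPM to 2.21, 2.44 and 2.27 CPM, all higher, with a log2 change of 0.35 ± 0.13 (adjusted p = 0.040 in edgeR's test), and its adjusted p rose to as much as 0.153 when 1 library was left out. By the adjusted p alone, 21.8% of all genes tested were lower and 22.6% higher in CAL27. CCL26, the eosinophil attractant, had 8, 2 and 18 counts without DOX and 18, 24 and 20 under DOX, a log2 change of 1.28 ± 0.58 that did not pass (adjusted p = 0.082 in edgeR's test). Its CPM values did not overlap, as for 26% of all genes in that direction, and the third vehicle library decided the call, since without it the change was 2.19 with an adjusted p of 0.021.

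In HSC3 cells, CCRL2 was the only 1 of the 6 members to be called with DOX, and it rose. All 6 again passed the filter on low counts, and 4.4% of all 18021 genes tested were called lower and 1.58% higher. The median log2 change of the members was 0.076, beside −0.00973 for all genes tested.

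CCRL2, the chemerin-binding protein, had 524, 272 and 410 counts in the vehicle libraries and 1564, 1244 and 1242 in the DOX libraries in HSC3. These were 4.54, 3.31 and 3.43 CPM against 10.5, 9.23 and 10.3 CPM. The lowest DOX library was above the highest vehicle library by a wide margin, and 19.8% of all genes tested had every DOX library above every vehicle library. The log2 change was 1.40 ± 0.16 (SE, adjusted p = 6.3e-05 in edgeR's test, n = 3 per group). CCRL2 stayed called in every other way of processing that was run, though the looser cuts of the same fit could not lose the call.

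CCL28, the most abundant ligand of HSC3 cells, had 15.8, 16.6 and 18.8 CPM with vehicle and 20.4, 17.1 and 15.04 CPM with DOX. The DOX libraries bracketed the vehicle libraries, and the log2 change was 0.033 (95% interval −0.24 to 0.31; adjusted p = 0.89 in edgeR's test). CCL20 had 314, 141 and 191 counts without DOX and 323, 393 and 286 under DOX, which is 2.72, 1.72 and 1.60 CPM against 2.18, 2.92 and 2.36 CPM. The first vehicle library of CCL20 lay among the DOX libraries, and the log2 change was 0.30 (95% interval −0.27 to 0.86; adjusted p = 0.45 in edgeR's test).

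The other 3 members were near 0 in HSC3. CCL2 had 10, 6 and 12 counts in the vehicle libraries and 20, 12 and 0 in the DOX libraries, an estimated 0 to 1.6 molecules per library, so its log2 change of −0.22 had a 95% interval from −3.13 to 2.7 (adjusted p = 0.93 in edgeR's test). CCL26 had 22, 10 and 10 counts without DOX and 18, 24 and 16 under DOX, an estimated 1.0 to 3.3 molecules, and its log2 change was 0.12 (95% interval −1.86 to 2.10; adjusted p = 0.95 in edgeR's test). Neither change was detectable with so few estimated molecules.

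CCL5 in HSC3 had 54, 12 and 38 counts in the vehicle libraries and 0, 2 and 12 in the DOX libraries. On the CPM scale these were 0.468, 0.146 and 0.318 against 0, 0.0148 and 0.0992, with every DOX library below every vehicle library, as for 22.8% of all genes tested. The log2 change was −3.04 ± 1.25 (SE) and did not pass (adjusted p = 0.098 in edgeR's test). DESeq2 gave an adjusted p of 0.040, a fit over all 12 libraries 0.0080, and the fit without the third DOX library a change of −5.25 with 0.028. The call for CCL5 thus turned on the method, with an estimated 8.1 molecules or fewer in each library.

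**Figure D3:**
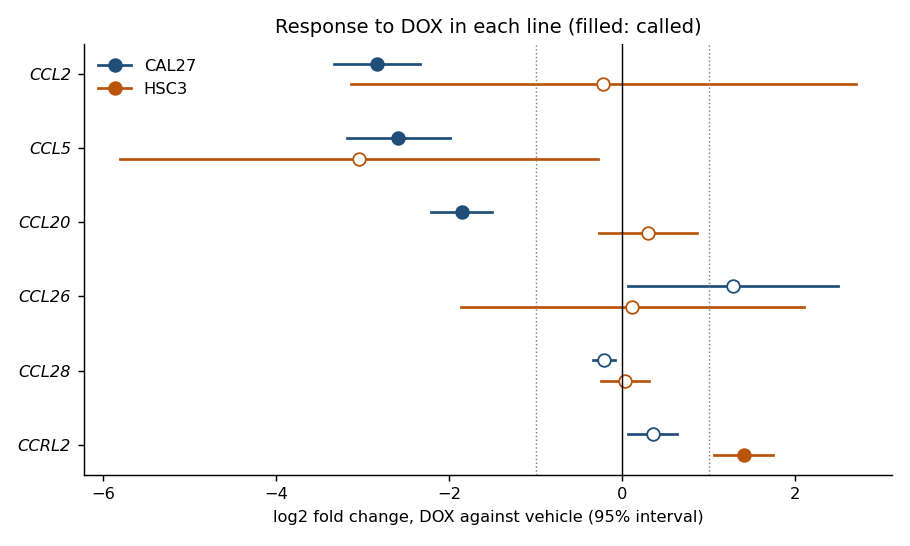
log2 fold change of DOX against vehicle for each member in CAL27 and HSC3 (x axis), with 95% intervals as lines, filled points for called genes and dotted lines at a log2 change of −1 and 1. CCL2, CCL5 and CCL20 are called lower in CAL27 and CCRL2 higher in HSC3, and the intervals of CCL2, CCL5 and CCL26 in HSC3 are wide.

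A gene called in 1 line and not in the other need not differ between them, so the difference of the responses, HSC3 minus CAL27, was tested in 1 fit over all 12 libraries. Of the 6 members, CCL2, CCL20 and CCRL2 were called, all with a positive difference. Of all 20694 genes tested, 2.19% were called positive and 3.02% negative, or 8.25% and 12.3% by the adjusted p alone. The 6 members had a median difference of 0.65, beside −0.0224 for all genes tested. MUC1 itself was called, with a difference of 1.36, a call lost with counts divided by counts per molecule (1.31). With vehicle, MUC1 was lower in HSC3 by −4.98 on the log2 scale. HSC3 with vehicle held less MUC1 (1.76 CPM) than CAL27 with DOX (2.98 CPM). The loss of MUC1 was thus not alike in the lines, and its part in the differences below was not tested.

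CCL20 had the smallest adjusted p of the members, with a difference of 2.14 ± 0.34 on the log2 scale (SE, adjusted p = 3.4e-04 in edgeR's test). CCL20 was lower in all 3 DOX libraries of CAL27, whereas the HSC3 groups overlapped. CCRL2 differed by 1.06 ± 0.20 (adjusted p = 0.0012 in edgeR's test), with DOX libraries above vehicle libraries in both lines and more so in HSC3. Without the second HSC3 vehicle library the difference for CCRL2 was 0.97, just under the limit of 1. CCL2 differed by 2.67 ± 0.74 (adjusted p = 0.018 in edgeR's test), but this rests on the estimated 0 to 1.6 molecules per HSC3 library given above. The CCL2 call was lost without the first HSC3 DOX library (1.95, adjusted p = 0.34), without the second (2.58, adjusted p = 0.058), without a filter on low counts (adjusted p = 0.080) and once counts had been scaled down to molecules (adjusted p = 0.40).

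For the other 3 members the responses were not shown to differ, and the intervals were of unequal width. CCL28 differed by 0.24 (95% interval −0.07 to 0.56), CCL5 by −0.48 (95% interval −2.64 to 1.69) and CCL26 by −1.18 (95% interval −3.45 to 1.10). The interval of CCL28 did not reach 1 in either direction, whereas those of CCL5 and CCL26 hold differences of more than 1 in either direction.

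Of 21 other CC chemokine genes in the files, 12 were at 0 in all 12 libraries and 20 had no library above 20 counts, so nearly all the RNA of the family came from the 5 ligands among the members and from CCL22. CCL22, a ligand of CCR4 that draws regulatory T cells, was the exception, with 2.80 to 3.16 CPM in CAL27 vehicle and 2.44 to 3.35 CPM in CAL27 DOX, a log2 change of −0.02 (adjusted p = 0.90 in edgeR's test). In HSC3 CCL22 was at 0.670 to 0.936 CPM with vehicle, called lower than in CAL27 (−1.85 ± 0.34, adjusted p = 1.8e-04 in edgeR's test), and at 0.430 to 1.56 CPM with DOX. CCL17, a second CCR4 ligand, fell in CAL27 from 17, 13 and 12 counts to 2, 3 and 2 (−2.39 ± 0.68, adjusted p = 0.0068 in edgeR's test). In the fit over 12 libraries the CCL17 call was lost (−2.38, adjusted p = 0.22). CCL17 and CCL22 were the 2 of these genes tested in CAL27, where 5.11% of all genes tested were called lower.

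The receptors through which the ligands act were mostly not counted. CCR6, the receptor of CCL20, was at 0 in all 12 libraries, and CCR2, the receptor of CCL2, had at most 2 counts. CCR3, shared by CCL26 and CCL28, had 131 to 166 counts in CAL27 and 92 to 262 in HSC3. CCR10, a receptor of CCL28, had 6 to 28 counts in CAL27 and 53 to 100 in HSC3, and was called higher in HSC3 with vehicle (2.34 ± 0.55, adjusted p = 0.0016 in edgeR's test). Of the 14 CC and atypical receptors, 6 were tested in CAL27 and 5 in HSC3. In each line 1 was called lower with DOX, beside 5.11% of all genes tested in CAL27 and 4.4% in HSC3.

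That receptor was ACKR3, an atypical scavenger receptor of the CXC chemokine CXCL12. It went from 47.9–53.0 to 14.6–17.0 CPM in CAL27 (−1.67 ± 0.058, adjusted p = 1.6e-14) and from 12.6–16.4 to 3.72–4.001 CPM in HSC3 (−1.89 ± 0.13, adjusted p = 2.7e-06), both by edgeR's test. ACKR3 was also lower in HSC3 than in CAL27 with vehicle, by −1.79 on the log2 scale.

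For CCRL2, the partners are chemerin, encoded by RARRES2, and the chemerin receptors CMKLR1 and CMKLR2, the latter listed under its older symbol GPR1. RARRES2 had 69 counts in each CAL27 vehicle library and 30 to 38 with DOX (−0.93 ± 0.29, adjusted p = 0.012 in edgeR's test), short of the fold limit, and 0 to 29 counts in HSC3. GPR1 went from 20, 6 and 24 counts to 32, 34 and 72 in CAL27 (1.57 ± 0.43, adjusted p = 0.0053 in edgeR's test). The GPR1 call was lost in the fit over 12 libraries (1.57, adjusted p = 0.33). CMKLR1 had at most 1 count. Of these 3 genes listed in the files, 2 were tested in CAL27, where GPR1 was the 1 called, beside 1.31% of all genes called higher. The 1 gene tested in HSC3, RARRES2, was not called there.

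Among 23 genes for transcription factors and receptors known to act on CC chemokine genes, 1 was called higher and 2 lower with DOX in CAL27. Of all genes tested there, 1.31% were called higher and 5.11% lower. In HSC3, 0 were called by edgeR's test or by DESeq2, beside 1.58% higher and 4.4% lower of all genes by edgeR's test. There 10 had an unadjusted p under 0.05. By the adjusted p alone 2 were higher and 6 lower in HSC3, beside 13% and 15.4% of all genes tested. In CAL27, IRF7 fell from 8.69 ± 0.917 to 2.45 ± 0.295 CPM (−1.84 ± 0.11) and STAT2 from 231.5 ± 3.53 to 105.2 ± 3.94 CPM (−1.14 ± 0.038), both interferon-pathway factors. FOSL1, an AP-1 subunit, rose from 44.2 ± 4.46 to 188.6 ± 13.0 CPM (2.09 ± 0.077) in CAL27. In HSC3, IRF7 was short of the fold limit (−0.94, adjusted p = 0.016 in edgeR's test). It was called there without the third vehicle library (−1.04) or the third DOX library (−1.17). Its adjusted p in that test rose to as much as 0.097 with 1 library left out. By the adjusted p alone 15 of the 23 were lower and 4 higher in CAL27, beside 21.8% and 22.6% of all genes tested. The median log2 change of these 23 genes was −0.31 in CAL27 and −0.111 in HSC3.

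Of the same 23 genes, TNFAIP3 and FOSL1 were called for a difference in response between the lines. Of all genes tested, 2.19% were called positive and 3.02% negative. By the adjusted p alone 8 of the 23 had a positive difference and 4 a negative 1, beside 8.25% and 12.3% of all genes. TNFAIP3, a target and inhibitor of NF-kB, went from 84.0 to 43.3 CPM in CAL27 and from 208.8 to 238.5 CPM in HSC3, a difference of 1.15 ± 0.073 (adjusted p = 7.5e-08 in edgeR's test). FOSL1 differed by −2.38 ± 0.11 (adjusted p = 5.2e-09 in edgeR's test), with 730.4 CPM in HSC3 vehicle and 600.0 CPM in HSC3 DOX. With vehicle, 5 of the 23 were called higher in HSC3 and 4 lower, beside 13.2% and 18.7% of all genes tested. Among those with the highest levels were FOSL1 (4.05), TNFAIP3 (1.31) and IL13RA1 (1.41, a receptor subunit for the cytokines that induce CCL26), all higher in HSC3 on the log2 scale, and IL1R1 (−3.34), lower.

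Of 5 genes for enzymes that trim chemokines or proteoglycans that hold them, MMP2, a protease known to cleave CC chemokines, was called lower with DOX in both lines. In all, 1 of the 5 was called lower in CAL27 and 2 in HSC3, beside 5.11% and 4.4% of all genes tested. By the adjusted p alone 4 were lower in CAL27 and all 5 in HSC3, beside 21.8% and 15.4% of all genes. MMP2 went from 2.76 ± 0.409 to 0.793 ± 0.0515 CPM in CAL27 (−1.80 ± 0.16) and from 16.2 ± 1.41 to 3.72 ± 0.257 CPM in HSC3 (−2.13 ± 0.12). DPP4, a peptidase that trims CCL5 among others, was called lower in HSC3, from 0.858 ± 0.0844 to 0.221 ± 0.163 CPM (−1.96 ± 0.61, adjusted p = 0.034 in edgeR's test), and its response differed from that in CAL27 by −1.48 ± 0.49 (adjusted p = 0.046). The DPP4 call in HSC3 was lost without any 1 of the 3 vehicle libraries or without the second DOX library (adjusted p = 0.065 to 0.113). The call for the difference in DPP4 was lost in 12 of 17 alternatives, with no filter on low counts (adjusted p = 0.064) and without any 1 library other than the third HSC3 DOX library, with values from −1.55 to −0.98. With vehicle, MMP2 (2.56) and SDC4 (1.20), a cell-surface heparan sulfate proteoglycan, were called higher in HSC3 and DPP4 (−2.45) lower, on the log2 scale. Of all genes tested, 13.2% were called higher and 18.7% lower there. SDC4 was at 0.93 and no longer called with library totals.

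As a description, the genes most like each member over the 6 libraries of a line were found by Pearson correlation of log2 CPM among genes of at least 3 on that scale. The 6 libraries fall into 2 groups, so the value follows the response to DOX as much as anything else. In CAL27 the closest to CCL2 were IFI6, TRIM22 and ERAP2 (0.9997 to 0.9998). The closest to CCL20 were SLC7A8, WFDC2 and CCNG2 (0.999 to 0.9997), and to CCL5 USP8, KIDINS220 and BASP1 (0.998 to 0.9991). The closest to CCL28 were KYAT3, CYHR1 and GPT2 (0.996 to 0.999), to CCRL2 GAPVD1, SUPT6H and CENPF (0.994 to 0.998) and to CCL26 DTD2, SMNDC1 and MTO1 (0.983 to 0.985).

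In HSC3 the closest to CCRL2 were SLC11A2, JADE3 and UBOX5 (0.998 to 0.999) and to CCL28 FNTA, PRPF38B and NAP1L1 (0.976 to 0.990). The values were 0.963 to 0.967 for CCL20 (DUSP16, TMEM168 and TINF2). For the 3 members near 0 they were 0.990 to 0.992 for CCL5 (ARMC7, OPTN and LMTK2), 0.964 to 0.979 for CCL26 (PRKCZ, ARHGEF17 and ABCB8) and 0.959 to 0.971 for CCL2 (RDH14, UACA and PNPT1). No gene was among the 3 closest to the same member in both lines.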

How the data were processed

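Total RNA of 12 cultures was made into TruSeq Stranded mRNA libraries. The submitters' processing notes name FastQC 0.11.9, STAR 2.7.9a, Subread 2.0.1 with featureCounts, and GRCh38. The authors deposited 1 table of counts per line, as whole numbers per gene symbol that had not been normalized. The annotation counted, the use of strand and the handling of duplicate reads are not given in the sources used here. Of 39368 symbols, 38934 matched GENCODE v44, the source of positions and exon lengths. The columns of the CAL27 DOX libraries are numbered 4 to 6 and were mapped to their group without a replicate number.

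Each line was fitted alone in R 4.3.3 with edgeR 4.0.16 (TMM, filterByExpr with minimum counts of 10 and 15, robust quasi-likelihood test). The difference between lines and the vehicle contrast came from 1 fit of 4 groups over 12 libraries. A call needed a fold change above 2 and p under 0.05 after Benjamini-Hochberg adjustment over every gene in the fit. SE is the log2 change divided by the square root of F. Levels are CPM, also per kb of merged exons. The fits were tested on simulated counts with 200 changed genes. They recovered 100% in CAL27, 96.5% in HSC3 and 90% for the difference between lines. The changed genes were drawn above a minimum level, and several counts per molecule were not simulated. The test therefore does not cover genes near 0. No pair of replicates held identical counts (0.646% to 3.34% of genes equal). Alternatives were DESeq2 1.42.0, other scalings, no filter, counts per molecule, a replicate block and each library left out.

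Members and lists were chosen with earlier results of these data known. Named are the members, MUC1, called genes of each list (of more than 5, the 5 with the highest CPM) and the 3 genes most alike to each member. Results of 2 genes of the lists are not reported here.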

Additional observations from a re-analysis of the deposited data

Results flagged for a closer look

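The responses to DOX of 3 members differed between the lines by a test of the difference itself, HSC3 minus CAL27 on the log2 scale: CCL2 by 2.67, CCL20 by 2.14 and CCRL2 by 1.06. For CCL20 and CCRL2 every library had at least 87 counts, and the CCL20 call held in all 17 alternatives run for it. For CCL2 the HSC3 side of the comparison had 0 to 20 counts in a library. The estimated counts per molecule were 8.93 to 17.2 in HSC3 DOX and 4.18 to 7.43 in HSC3 vehicle. With counts divided by these estimates, the difference for CCL2 was 2.50 with an adjusted p of 0.40 in edgeR's test.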

How the results depend on the processing

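The calls of CCL2, CCL5 and CCL20 in CAL27 and of CCRL2 in HSC3 held in all alternatives run. So did those of CCL20 in the difference between lines and of CCL2 between vehicle groups. Within a line, the alternatives include a fold change of 1.5 and the adjusted p alone, looser cuts that cannot lose a call. Other scalings and tools moved the following, and the cause was not tested. The difference between lines for CCL2 was 2.683 with no filter and 2.497 with counts per molecule. CCL5 in HSC3 was called with DESeq2 (−3.055) and in the fit over 12 libraries (−3.071). CCL5 between vehicle groups was called with DESeq2's size factors in edgeR (−1.663), library totals (−1.888), no filter (−1.644), DESeq2 (−1.669) and counts per molecule (−1.690). Library totals shifted the median of all genes in that comparison from −0.118 to −0.388, and gave −0.0202 for CCL28, 0.7919 for CCRL2 and −0.1407 for IRF7. IL1R1 in HSC3 turned to 0.000335 with DESeq2's size factors and 5.72e-05 with DESeq2. Genes called lower in CAL27 numbered 984, and 568 in the fit over 12 libraries; in HSC3 that fit called 1237 lower and 545 higher, against 793 and 284. At a fold change of 1.5 the counts were 1848 lower and 714 higher in CAL27 and 1514 and 798 in HSC3. With the adjusted p alone they were 4203 and 4351 in CAL27, where CCL28 (−0.2076) and CCRL2 (0.3518) were then called, and 2782 and 2342 in HSC3. CPM on library totals were 254.5 for CCL2, 3.667 for CCL20, 15.9 for CCL28 and 1.999 for CCRL2 in CAL27 vehicle, 13.62 for CCL28 and 2.523 for CCRL2 in CAL27 DOX, and 8.997 for CCRL2 in HSC3 DOX. Per molecule CCL28 was 14.6 in CAL27 vehicle.

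With each library left out in turn, CCL26 in CAL27 ranged from 0.848 to 2.186, and was called without vehicle library 3. In HSC3 the ranges were −5.251 to −2.448 for CCL5, −0.931 to 0.351 for CCL2, −0.120 to 0.488 for CCL26, and −0.0849 to 0.129 for CCL28. Between lines they were 1.954 to 3.191 for CCL2, 0.971 to 1.231 for CCRL2 and −2.660 to 0.134 for CCL5. Between vehicle groups they were −1.011 to −0.583 for CCL20, 0.892 to 1.141 for CCRL2 and −2.043 to −1.296 for CCL5, which was called without HSC3 vehicle 1 and without each HSC3 DOX library. Ranges of genes outside the members that changed sign without being called were −0.116 to 0.0922 (CCL22) and −0.193 to 1.091 (CCR10) in CAL27. In HSC3 they were −0.0756 to 0.697 (CCL22), −0.316 to 0.0552 (CCR10), −0.419 to 0.493 (IL17RC) and −0.0999 to 0.0952 (IL1R1). Between vehicle groups the range was −0.0725 to 0.230 (IRF7). Between lines they were −2.103 to 2.378 (CCL17), −0.0415 to 0.728 (CCL22), −1.211 to 0.0576 (CCR10), −1.282 to 0.965 (GPR1) and −0.0713 to 0.0241 (SDC4).

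With the replicate number as a block, HSC3 gave 753 genes lower and 252 higher and changed no member's call (CCRL2 1.419). Deviations of same-numbered HSC3 libraries from their group means correlated at −0.2, 0.348 and −0.345. With 3 libraries per group these deviations are tied together, so the values cannot tell whether same-numbered libraries share a culture or batch. No block was run for CAL27 or for either comparison of the lines, because the CAL27 DOX columns carry no replicate number. Low counts, and few molecules by the estimate above, limit CCL2, CCL5 and CCL26 in HSC3.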
